A study of Macaca mulatta with 24 samples.

Results

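The genes described here are 10 genes of airway mucus: the secreted mucin MUC5B, the membrane mucins MUC1, MUC4, MUC16 and MUC20, the goblet cell transcription factor SPDEF, the protein disulfide isomerases AGR2 and AGR3, the trefoil peptide TFF3, and FCGBP, a protein secreted with mucins. They were chosen by name. A gene was taken as measured where the symbol in its row of the deposited table was that name, which gave 7 of the 10: MUC5B (ENSMMUG00000010544), MUC1 (ENSMMUG00000003906), MUC20 (ENSMMUG00000008355), SPDEF (ENSMMUG00000056340), AGR2 (ENSMMUG00000017050), AGR3 (ENSMMUG00000016017) and TFF3 (ENSMMUG00000062860). MUC4 has a row without a symbol, and its gene ID (ENSMMUG00000047184) is paired with MUC4 in the gene name table. This made 8 measured genes among the 35432 rows, and all 8 were among the 14062 genes tested, those that reached 10 in 4 or more libraries. MUC16 and FCGBP were not matched and are not analysed here.

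Airway mucus is a gel of secreted mucins that traps inhaled particles and is moved by cilia. Goblet and other secretory cells make the gel-forming mucins, fold them in the endoplasmic reticulum with the help of AGR2, load them with sugars in the Golgi apparatus and release them from granules, and SPDEF is known from mice as a driver of the goblet cell fate. Membrane mucins stay attached to the cell surface, where they form a brush around cilia and microvilli and can signal through short cytoplasmic tails. In airway disease the secreted and the membrane mucins are often studied together because smoke and cytokines can act on both.

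The cells were primary epithelial cells of the trachea and bronchi of adult female rhesus macaques, grown to a differentiated layer on porous inserts with air above and medium with retinoic acid beneath. Diluted whole wood smoke was compared with filtered air, each given for 6 hours on an exposure day, and every animal contributed 1 library to each group. The 6 groups were smoke and air after 1 day, smoke and air after 5 consecutive days, and smoke and air after 5 days of exposure and then 7 days without it (called recovery). All 24 libraries thus came from 4 animals. S1 was 5463 days old and weighed 5.59 kg, S2 was 2930 days old at 7.17 kg, S3 was 2238 days old at 4.56 kg, and S4 was 1128 days old at 3.18 kg. Age, weight and animal cannot be told apart. A culture is a mixture of cell types, so fewer cells of a type and less RNA per cell cannot be told apart.

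Values are normalized counts, a signal per gene and library scaled by the authors, with totals of 11.8 to 15.2 M per library and approximate depths of 9.48 to 17.4 M reads. S1's 5-day air culture was unlike the rest. Its median correlation with the other libraries was 0.86, against 0.931 to 0.956 for the others, and its depth was the lowest. It held the highest of all 24 values of MUC4, MUC1, SPDEF and AGR2, and the second highest of AGR3. Most results of the 8 genes that use the 5-day air group are therefore given with and without it. Markers of basal cells (5 of 5 matched genes) and of ciliated cells (6 of 6) had medians of at least 10. Of the goblet cell markers outside the 8 genes, 3 of 6 did (CLCA1, CREB3L1 and ERN2). The others, FOXA3, TFF1 and ITLN1, had medians of 3.76, 1.27 and 0. The ionocyte markers FOXI1, ASCL3 and ATP6V1G3 and the neuroendocrine markers CHGA and CALCA were below 10 in every library. So were the leukocyte markers PTPRC and CD3E, the endothelial marker CDH5 and the fibroblast markers DCN and LUM. Other markers of the last 3 cell types were not. The leukocyte markers CD68 and LYZ had medians of 584 and 2591, and the endothelial markers PECAM1 and VWF of 66.3 and 81.5. The fibroblast markers COL1A1 and COL1A2 had medians of 9.93 and 4.44 and reached 33.9 and 21.7.

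AGR3 was the gene of the 8 that passed the test of smoke against air, and it did so at recovery. It had 1.78-fold more normalized counts in smoke than in air, and every smoke culture was above every air culture. No mucin gene passed at any of the 3 times, and for MUC5B, MUC4 and MUC20 animals accounted for most of the variation. Between 1 and 5 days in air, AGR2 and AGR3 were called higher, 2 of 8 genes where 3.98% of all genes were called. AGR3 was then called lower in air by recovery, 1 of 8 where 11.3% of all genes were. These air calls were lost when S1's 5-day air culture was left out, unless animal was added to the fit as a block. In smoke, AGR3 was higher at recovery than after 5 days in 4 of 4 animals. Tests were fitted across all genes with limma on log2(value + 1), two-sided, with Benjamini-Hochberg adjustment, and a gene was called at an adjusted p under 0.05.

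**Figure D1:**
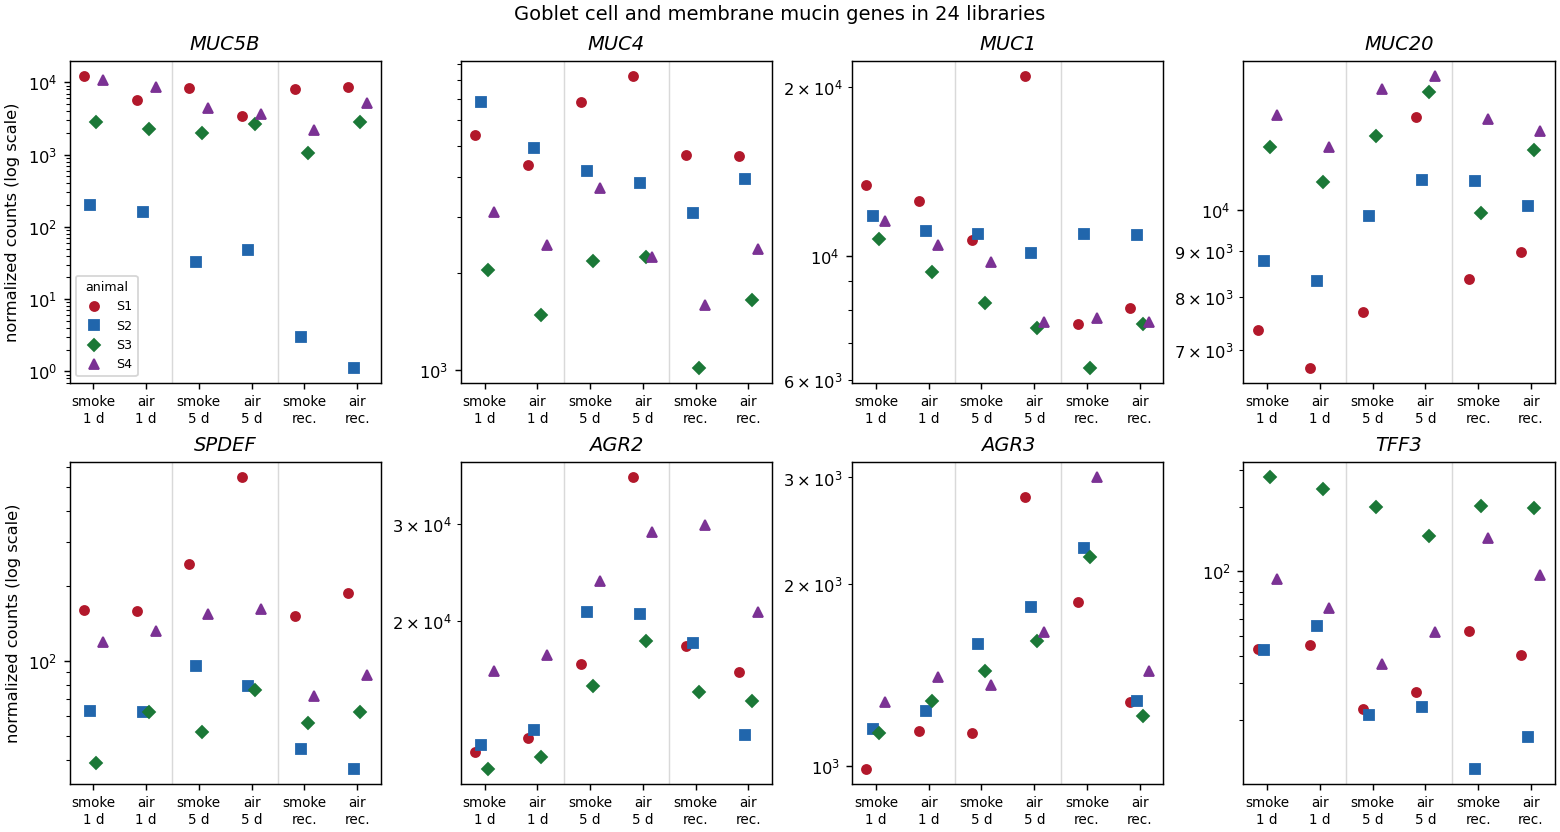
Normalized counts (log scale) of the 8 measured genes in each library, with the groups on the horizontal axis, smoke left of air at each time, and 1 symbol per animal. MUC5B of S2 lies far below the other animals in every group, TFF3 of S3 lies above them, and the smoke values of AGR3 at recovery (1870 to 3008) lie above the air values (1211 to 1437).

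AGR3 encodes a protein disulfide isomerase of the endoplasmic reticulum, which in mouse airways is found in ciliated cells and is needed for normal ciliary beating. After 1 day it had 989, 1152, 1136 and 1277 normalized counts in the smoke cultures of S1 to S4, against 1142, 1233, 1284 and 1406 in the air cultures. The smoke value was the lower in 4 of 4 animals, although the groups overlapped. The log2 fold change was −0.16 ± 0.16 (SE, adjusted p = 1). After 5 days it had 1133, 1591, 1438 and 1363 in smoke, against 2788, 1832, 1611 and 1665 in air. Here the groups did not overlap and smoke was again lower in 4 of 4 animals, but the log2 fold change of −0.49 ± 0.16 was not called (unadjusted p = 0.0054, adjusted p = 0.317). Without S1's 5-day air culture it was −0.31 ± 0.13 (adjusted p = 0.402).

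At recovery AGR3 had 1870, 2297, 2221 and 3008 normalized counts in smoke, against 1278, 1284, 1211 and 1437 in air. The lowest smoke value, that of S1, exceeded the highest air value, that of S4, and each animal's smoke culture was 1.46 to 2.09 times its own air culture. The means were 2349 ± 477 in smoke and 1302 ± 95.4 in air (SD, n = 4 each). The log2 fold change was 0.83 ± 0.16 (adjusted p = 0.0211), and AGR3 was 1 of 8 genes called in a comparison where 0.242% of all genes were called. With animal as a block the adjusted p was 0.00627, and 3.41% of all genes were called. With the block and S1's 5-day air culture left out the adjusted p was 5.01e-06, and AGR2 was called as well (2 of 8, against 18.8% of all genes). Without the block, the call was lost when any air library of the recovery groups, or the smoke library of S2, S3 or S4, was left out (adjusted p = 0.0501 to 0.136), and when all libraries of S2, S3 or S4 were left out (0.364 to 0.607), while the log2 fold change stayed between 0.71 and 0.93. With the block it was also lost when all libraries of S2, S3 or S4 were left out (adjusted p = 0.0996, 0.108 and 0.14), and with only the 8 recovery libraries and no block the adjusted p was 0.089.

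The effect of smoke on AGR3 itself differed between 5 days and recovery. The change of the log2 fold change was 1.32 ± 0.22 (adjusted p = 0.00804), a shift toward higher values in smoke in 4 of 4 animals, and 1 of 8 genes was called where 0.348% of all genes were. Without S1's 5-day air culture the change was 1.14 ± 0.18 (adjusted p = 0.00268). It was called without each of the 24 libraries in turn, but lost without all libraries of S2, S3 or S4 (adjusted p = 0.121 to 0.296). With the block it was lost without those of S4 (0.0887), and with only the libraries of the contrast and no block the adjusted p was 0.101. From 1 day to 5 days 0 of 8 genes were called for a change of the smoke effect (0.0142% of all genes called), with 0 of 8 at an unadjusted p under 0.05, and for AGR3 that change was −0.33 ± 0.22 (adjusted p = 0.953). Without S1's 5-day air culture the change of AGR3 was −0.16 ± 0.18 with no block and −0.09 ± 0.12 with the block.

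Markers of other cell types also differed between smoke and air at recovery. Of the 5 basal cell markers, 4 were lower in smoke in 4 of 4 animals, and their summed level was 13863 to 31202 in smoke, against 39476 to 49615 in air. Of the 6 ciliated cell markers, 4 were higher in smoke in 4 of 4 animals, with sums of 7706 to 21594 in smoke and 6936 to 15805 in air. Of all genes tested, 38.3% had the same sign in every animal at recovery, in either direction. The squamous marker sum was also lower in smoke in 4 of 4 animals (18040 to 26939, against 25402 to 37730 in air). It was nearly all KRT13 (median 22599), as SPRR3 and IVL had medians of 18.2 and 4.47. Of the 3 matched squamous markers, 1 was lower in every animal. The leukocyte marker sum was higher in 4 of 4 (2892 to 5293, against 2405 to 3465), with 1 marker higher and 1 lower in every animal. It was nearly all LYZ and CD68 (medians of 2591 and 584), with PTPRC and CD3E below 10 in every library. The 6 goblet cell markers outside the 8 genes summed to 2264 to 6774 in smoke and 2227 to 6768 in air, with ITLN1 below 10 in every library. The part of these shifts in the AGR3 result was not tested.

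AGR2, the next protein-coding gene to AGR3 in the RefSeq annotation of assembly T2T-MMU8v2.0, encodes the related isomerase that secretory cells use to fold mucins. After 1 day it had 11543, 11905, 10759 and 16256 normalized counts in smoke, against 12248, 12659, 11307 and 17358 in air. Each smoke culture was slightly below its own air culture, by a nearly equal ratio of 0.937 to 0.952, and the log2 fold change was −0.09 ± 0.24 (adjusted p = 1). After 5 days AGR2 had 16740, 20799, 15216 and 23632 in smoke, against 36626, 20621, 18392 and 29060 in air. Smoke was lower in 3 of 4 animals and the groups overlapped (log2 −0.42 ± 0.24, adjusted p = 0.603). Leaving out S1's 5-day air culture gave −0.24 ± 0.24.

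At recovery AGR2 had 18034, 18233, 14862 and 29985 in smoke, against 16153, 12401, 14299 and 20818 in air. Smoke was higher in 4 of 4 animals, by 1.04 to 1.47 times, yet the groups overlapped: the smoke values of S1, S2 and S3 lay below the air value of S4, and that of S3 also lay below the air value of S1. The log2 fold change was 0.32 ± 0.24 without a block (adjusted p = 0.825), 0.32 ± 0.14 with animal as a block (adjusted p = 0.245), and 0.32 ± 0.09 with the block and S1's 5-day air culture left out (adjusted p = 0.0121). The change of the smoke effect from 5 days to recovery was 0.75 ± 0.33 (adjusted p = 0.405) without a block and was called with it (adjusted p = 0.0478). That call was lost with the block when all libraries of S2, S3 or S4 were left out (adjusted p = 0.141, 0.145 and 0.293). There 2 of 8 genes were called, against 3.56% of all genes, and without S1's 5-day air culture the same number was called, against 11.3%, with 0.54 ± 0.13 for AGR2 (adjusted p = 0.0102). The AGR3 value per AGR2 value in the same culture was 0.1 to 0.149 in smoke at recovery and 0.069 to 0.103 in air.

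**Figure D2:**
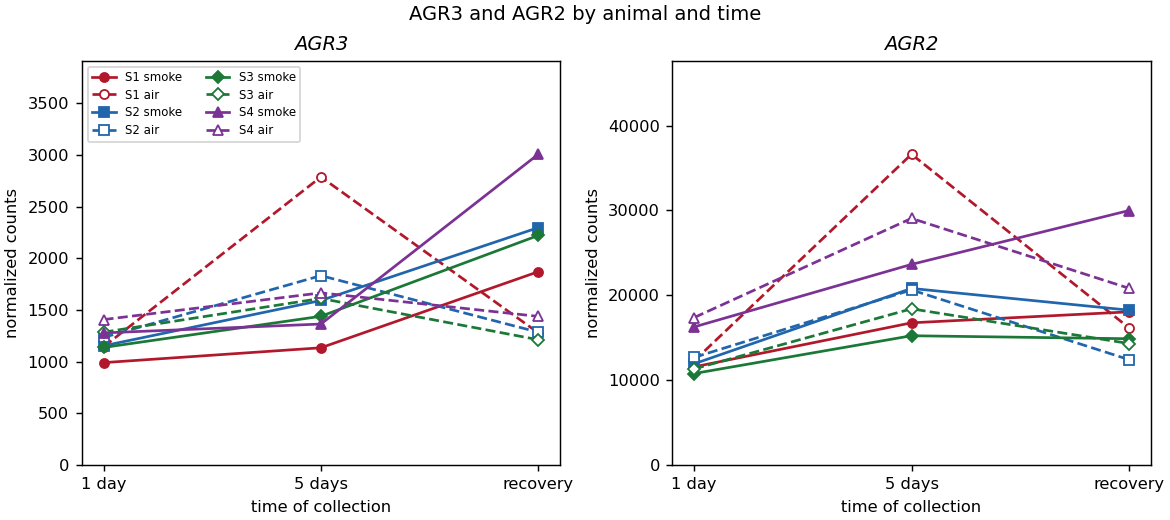
Normalized counts of AGR3 (left) and AGR2 (right) by time of collection, with 1 colour and symbol per animal, solid lines for smoke and dashed lines for air. AGR3 in smoke reaches 1870 to 3008 at recovery while AGR3 in air is back at 1211 to 1437. The 5-day air culture of S1 stands above the others, at 2788 for AGR3 and 36626 for AGR2.

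These genes also differed between times in air. There, AGR2 was higher after 5 days than after 1 day (log2 0.93 ± 0.24, adjusted p = 0.0323), as was AGR3 (0.61 ± 0.16, adjusted p = 0.0356), both in 4 of 4 animals. These were 2 of 8 genes called, where 3.98% of all genes were. With the block 3 of 8 were called, against 19.4% of all genes, the third being MUC20 (0.47 ± 0.10, adjusted p = 0.00605), and AGR3 missed the threshold there without the libraries of S2 (adjusted p = 0.0722). Without S1's 5-day air culture, AGR2 (0.75 ± 0.24, adjusted p = 0.0766) and AGR3 (0.43 ± 0.13, adjusted p = 0.0717) missed the threshold without a block, so that 0 of 8 genes were called against 4.2% of all genes, with 4 at an unadjusted p under 0.05. With the block and without that library, 4 of 8 were called against 18.6% of all genes, and the fourth was MUC1, which was lower at 5 days (−0.36 ± 0.10, adjusted p = 0.0171). Single 1-day air libraries of S1, S2 or S3 also ended both calls when left out, and that of S4 ended the call of AGR3 (adjusted p = 0.0609 to 0.111).

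From 5 days to recovery in air, AGR3 was lower in 4 of 4 animals (log2 −0.57 ± 0.16, adjusted p = 0.0263), 1 of 8 genes called where 11.3% of all genes were. In the smoke cultures AGR3 was higher at recovery than at 5 days in 4 of 4 animals, by 0.53 to 1.14 on the log2 scale. With the block, AGR2 (−0.69 ± 0.14, adjusted p = 0.00229) and SPDEF (−0.95 ± 0.25, adjusted p = 0.0105) were called too, 3 of 8 against 28.4% of all genes, and AGR3 missed the threshold there without the libraries of S2 (adjusted p = 0.0627). Without S1's 5-day air culture the same number was called with the block, against 27.1%, and 0 of 8 without it, against 8.72%, with 2 at an unadjusted p under 0.05. AGR3, AGR2 and SPDEF were then at −0.32 ± 0.09, −0.48 ± 0.09 and −0.67 ± 0.22 with the block (adjusted p = 0.0107, 0.000787 and 0.029). With no block they were at −0.39 ± 0.13, −0.51 ± 0.24 and −0.34 ± 0.60. The AGR3 call without a block was also lost when the recovery air library of S1, S2 or S3 was left out (adjusted p = 0.0606 to 0.0675). The 2 air comparisons share the 5-day air cultures, which lie on opposite sides of their differences.

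SPDEF had 160, 63, 38.9 and 119 normalized counts in smoke after 1 day, against 158, 62.1, 62.5 and 132 in air. After 5 days it had 245, 95.2, 51.7 and 154 in smoke, against 549, 79, 76.5 and 162 in air. At recovery it had 151, 44.2, 56.5 and 72.3 in smoke, against 187, 36.7, 62.4 and 87.4 in air. S1 was the highest animal in all 6 groups, and its 5-day air culture was 6.95 times the median of the other air cultures at that time. No time gave a call: the log2 fold changes were −0.20 ± 0.63, −0.38 ± 0.63 and −0.12 ± 0.63 (adjusted p = 1, 0.882 and 0.994). Animal as a block lowered each SE to 0.25 and gave no call either. Without S1's 5-day air culture and without a block the 5-day value was 0.23 ± 0.60, but S1, the highest animal, then counted in the 5-day smoke group only. Adding the block to that fit gave −0.10 ± 0.22.

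MUC5B is the gel-forming mucin that, in mice, is required for mucociliary clearance. After 1 day it had 12361, 198, 2849 and 10729 normalized counts in the smoke cultures of S1 to S4, against 5700, 158, 2283 and 8492 in the air cultures. Smoke was higher in 4 of 4 animals, by 2.17 times in S1 and by 1.25 to 1.26 times in the others. The spread between animals was far wider than that step, and the log2 fold change was 0.52 ± 2.55 (adjusted p = 1). Animal as a block gave 0.52 ± 0.84 (unadjusted p = 0.541). After 1 day 0 of 8 genes were called, where 0.0284% of all genes were, and 0 of 8 had an unadjusted p under 0.05.

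After 5 days MUC5B had 8413, 32.9, 2021 and 4346 in smoke, against 3397, 48.3, 2631 and 3667 in air. It was higher in smoke in S1 and S4 and lower in S2 and S3 (log2 0.16 ± 2.55, adjusted p = 0.991). Without S1's 5-day air culture it was 0.69 ± 2.83 with no block and −0.23 ± 0.86 with animal as a block. At recovery it had 8130, 2.95, 1069 and 2199 in smoke, against 8517, 1.11, 2858 and 5164 in air. Smoke was at 0.374 times air in S3, 0.426 times in S4 and 0.955 times in S1. Both recovery values of S2 were worth about 3 reads or fewer, and no ratio is given for that animal. The log2 fold change over all 4 animals was −0.45 ± 2.55 (adjusted p = 0.994), and its 95% interval of −5.76 to 4.85 shows how little the unblocked test could resolve. With animal as a block, where the SE was 0.84, MUC5B was not called at any of the 3 times either.

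Over its 6 cultures MUC5B had a median of 8272 in S1, 4755 in S4, 2457 in S3 and 40.6 in S2. The highest value of S2, 198, was below the lowest of any other animal, 1069, so S2 did not overlap with the others, while S1, S4 and S3 overlapped in their order. In S2 the level was also lower at each later time, with 198, 32.9 and 2.95 in smoke and 158, 48.3 and 1.11 in air after 1 day, after 5 days and at recovery. The medians of S1 and S2 differed 204-fold. Animal accounted for 85% of the sum of squares of log2(value + 1) of MUC5B over the 24 libraries, and the 6 groups of exposure and time for 5.84%.

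TFF3, a small secreted peptide that travels with mucins and takes part in epithelial repair, followed another order of animals. After 1 day it had 43.3, 42.6, 278 and 91.9 normalized counts in smoke, against 45.1, 55.6, 244 and 67.5 in air. After 5 days it had 22.7, 21.1, 200 and 36.9 in smoke, against 27.1, 23.2, 146 and 52.2 in air, and at recovery 52.3, 11.8, 203 and 143 in smoke, against 40.3, 16.7, 199 and 95.8 in air. S3 was highest in all 6 groups and did not overlap with the other animals, and its median was 9.09 times that of S2. The log2 fold changes of smoke over air were 0.05 ± 0.93, −0.10 ± 0.93 and 0.13 ± 0.93, none of them called. Animal as a block lowered each SE to 0.35 and gave no call either. Without S1's 5-day air culture the 5-day value was −0.36 ± 1.02 with no block and −0.12 ± 0.37 with the block. Within animals smoke was higher in 2, 1 and 3 of 4 at the successive times.

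MUC4, a large membrane mucin of the airway surface, had 5389, 6844, 2054 and 3114 normalized counts in smoke after 1 day, against 4359, 4928, 1480 and 2445 in air. Smoke was higher in 4 of 4 animals, by 1.24 to 1.39 times, a mean within-animal difference of 0.40 ± 0.09 on the log2 scale (SD, n = 4). It was not called without a block (0.40 ± 0.53 SE, adjusted p = 1) or with one (0.40 ± 0.19, unadjusted p = 0.0444, adjusted p = 1). After 5 days MUC4 had 6819, 4161, 2191 and 3680 in smoke, against 8262, 3818, 2245 and 2241 in air, higher in 2 of 4 animals (0.13 ± 0.53, adjusted p = 0.96). Without S1's 5-day air culture it was 0.54 ± 0.54 with no block and 0.30 ± 0.17 with the block.

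At recovery MUC4 had 4689, 3077, 1013 and 1592 in smoke, against 4656, 3935, 1655 and 2375 in air. Smoke was lower in S2, S3 and S4, at 0.612 to 0.782 times air, and at 1.01 times air in S1. The log2 fold change was −0.41 ± 0.53 (adjusted p = 0.947), and −0.41 ± 0.19 with the block (adjusted p = 0.262). It was called with the block when all libraries of S1 were left out, an alternative added after the data had been seen (−0.55 ± 0.16, adjusted p = 0.0243). The share of all genes called in that fit is not given here.

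MUC1, a membrane mucin with a signalling tail, had 13406, 11797, 10721 and 11519 normalized counts in smoke after 1 day, against 12531, 11098, 9349 and 10448 in air. After 5 days it had 10690, 10932, 8249 and 9739 in smoke, against 20988, 10104, 7426 and 7609 in air. The 5-day air culture of S1 was the highest of the 24, and in the other animals smoke was the higher at that time, so the log2 fold change was −0.09 ± 0.24 with that library and 0.25 ± 0.17 without it (adjusted p = 0.938 and 0.699). At recovery it had 7568, 10948, 6302 and 7735 in smoke, against 8057, 10900, 7550 and 7629 in air (−0.08 ± 0.24, adjusted p = 0.989). After 1 day smoke was higher in 4 of 4 animals by 1.06 to 1.15 times (0.13 ± 0.24, adjusted p = 1, and 0.13 ± 0.19 with the block).

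MUC20, a membrane mucin that binds the receptor MET in human cell lines, is the next protein-coding gene to MUC4 in the same RefSeq annotation. It had 7353, 8787, 11756 and 12732 normalized counts in smoke after 1 day, against 6680, 8343, 10752 and 11760 in air. Smoke was higher in 4 of 4 animals, by 1.05 to 1.1 times. After 5 days it had 7712, 9841, 12082 and 13633 in smoke, against 12687, 10792, 13519 and 14092 in air, so smoke was lower in 4 of 4 animals, at 0.608 to 0.967 times air. At recovery it had 8376, 10761, 9926 and 12624 in smoke, against 8992, 10111, 11644 and 12235 in air, higher in 2 of 4 animals. The log2 fold changes were 0.11 ± 0.20, −0.27 ± 0.20 and −0.05 ± 0.20 (adjusted p = 1, 0.697 and 0.991). Without S1's 5-day air culture the 5-day value was −0.27 ± 0.22 with no block and −0.14 ± 0.08 with the block. The change from 1 day to 5 days was −0.38 ± 0.29 (adjusted p = 0.953), or −0.38 ± 0.15 with the block (unadjusted p = 0.0189, adjusted p = 0.465). Without S1's 5-day air culture that change was −0.38 ± 0.30 with no block and −0.25 ± 0.11 with the block.

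Set side by side, the 4 mucin genes were higher in smoke after 1 day in 4 of 4 animals, and AGR2 and AGR3 were lower in 4 of 4. This made 6 of 8 genes with the same sign in every animal after 1 day, where 31.3% of all genes had one. After 5 days it was 2 of 8 (MUC20 and AGR3, lower), against 19.4% of all genes, and 3 of 8 over the animals other than S1, with MUC1 higher, against 42.1%. At recovery it was 2 of 8 (AGR2 and AGR3, higher), against 38.3% of all genes. The sizes after 1 day were small beside the spread of levels between animals, but not always beside the spread of the within-animal differences. On the log2 scale these were 0.40 ± 0.09 for MUC4, 0.13 ± 0.05 for MUC1 and 0.11 ± 0.03 for MUC20 (SD, n = 4). They were −0.09 ± 0.01 for AGR2 and −0.16 ± 0.05 for AGR3. The spread was wider for MUC5B (0.52 ± 0.40), SPDEF (−0.20 ± 0.32) and TFF3 (0.05 ± 0.35). Each animal's 1-day smoke library had a larger total than its air library. Scaled to equal library totals, the median log2 fold change of all genes after 1 day was −0.08, against 0 as deposited. MUC4 was then at 0.32, AGR2 at −0.17 and AGR3 at −0.24. The differences of MUC1 and MUC20 were not far above the size of that shift. Signs within animals were not recounted on that scale. Over the 8 genes the median log2 fold change of smoke over air was 0.08 after 1 day, −0.18 after 5 days and −0.07 at recovery, against medians over all genes tested of 0, 0.01 and 0.01. The 5-day median was 0 when S1's 5-day air culture was left out without a block, with 4 genes above 0 and 4 below. When the block was added to that fit it was −0.13, with 2 above 0 and 6 below, the counts also found over all libraries. After 5 days 0 of 8 genes were called without a block (0.0711% of all genes called) and 0 of 8 with one (1.69%), with 1 and 3 at an unadjusted p under 0.05. With the block and S1's 5-day air culture left out, 0 of 8 were called after 1 day (0.96% of all genes) and 0 of 8 after 5 days (6.26%). The smoke and air values did not overlap for 0 of 8 genes after 1 day (4.1% of all genes), 1 of 8 after 5 days (3.46%, and 1 of 8 against 8.64% without S1's 5-day air culture) and 1 of 8 at recovery (8.04%), AGR3 both times.

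**Figure D3:**
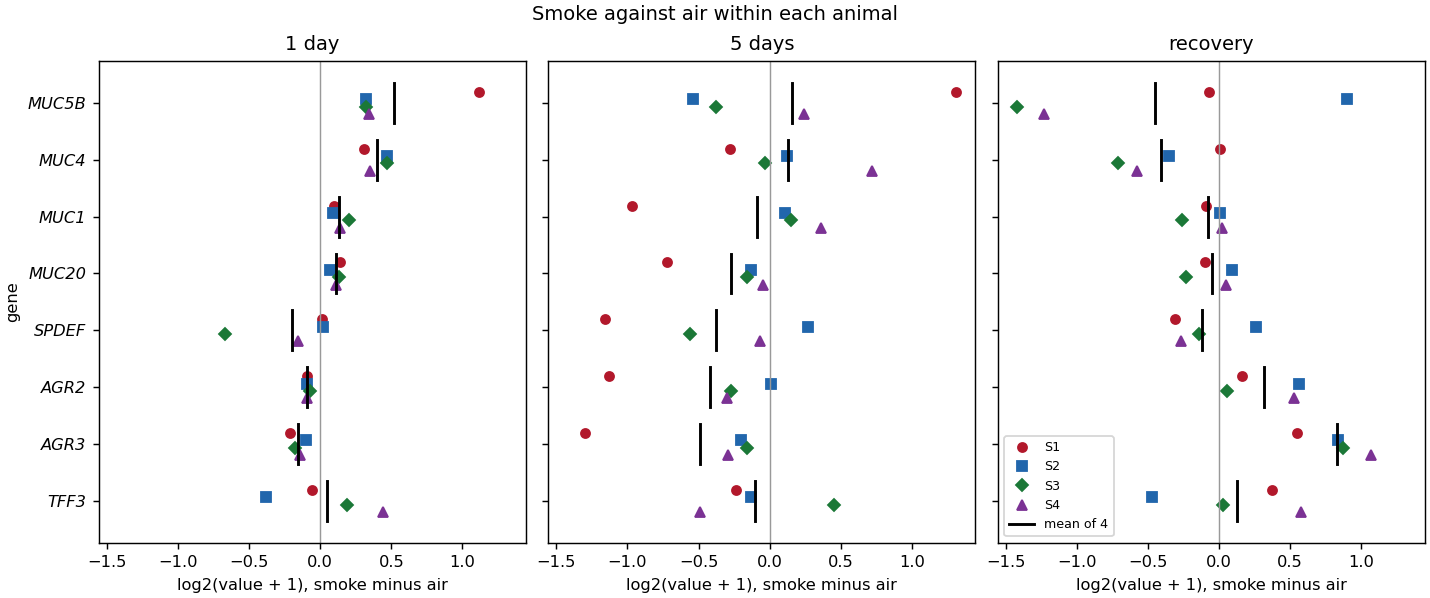
Difference of log2(value + 1), smoke minus air, within each animal (symbols) and its mean over the 4 animals (bars) for the 8 genes (rows) at the 3 times (panels). After 1 day the symbols of the 4 mucin genes lie right of 0 and those of AGR2 and AGR3 left of it, and at recovery AGR3 lies between 0.55 and 1.07. The MUC5B symbol of S2 at recovery rests on values of 2.95 and 1.11.

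The genes differed in how much of their variation fell to the animal. Animal accounted for 85% of the sum of squares of MUC5B, 81.5% of TFF3, 76.4% of MUC4, 72.8% of SPDEF and 61.4% of MUC20, but for 31.1% of MUC1, 29.2% of AGR2 and 2.76% of AGR3. The 6 groups accounted for 77.8% of AGR3 and 57.6% of AGR2, and for 29.8% or less of each of the other 6 genes. With S1's 5-day air culture left out, the animal share was 9.59% for AGR3 and 40.5% for AGR2, and the group share was 52.1% for MUC1, 11.6% for MUC20, 50.7% for AGR2 and 81.5% for AGR3, while every other animal or group share moved by less than 1.5 times. The residual of MUC1 was then 14.9%, against 39.1% over all libraries. Without that library the groups are of unequal size, and each share is what animal or group adds to a fit that already holds the other. The shares of a gene then do not add up to the whole, so they compare only roughly with those over all libraries. The order of animals was not shared: S1 had the highest median of MUC5B, MUC4, MUC1 and SPDEF, S4 of MUC20 and AGR2, S3 of TFF3 and S2 of AGR3. Neighbouring animals in these orders overlapped for every gene except at the low end of MUC5B and the high end of TFF3. These shares are descriptions, with no test.

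**Figure D4:**
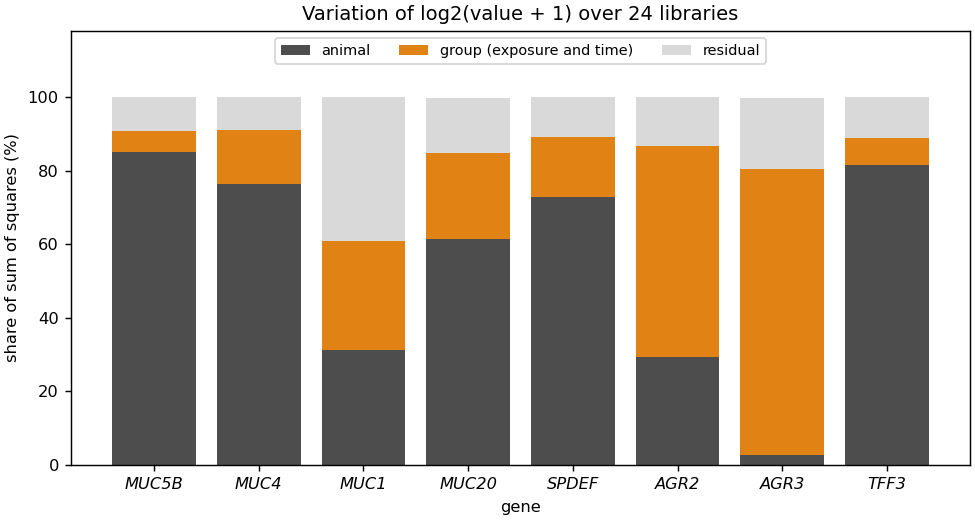
Shares (percent) of the sum of squares of log2(value + 1) over the 24 libraries that fall to animal, to the 6 groups and to the residual, stacked for each of the 8 genes. Animal takes 85% for MUC5B and 2.76% for AGR3, and the groups take 77.8% for AGR3. With S1's 5-day air culture left out (not drawn) animal takes 9.59% for AGR3, and the groups take 52.1% for MUC1, against the 29.8% drawn. The shares that are not drawn do not add up to the whole.

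Other genes of the mucus pathway were read from 7 lists. Among 14 tested regulators of secretory cells (of 16 listed) none was called in smoke against air at any time, with or without the block over all libraries. After 5 days ELF3, an epithelial ETS factor, had 19159 ± 2833 normalized counts in smoke and 26761 ± 7069 in air (SD, n = 4 each; lower in 4 of 4 animals, adjusted p = 0.398). The related factor EHF had 8227 ± 266 in smoke and 6517 ± 2147 in air (higher in 4 of 4, adjusted p = 0.553). STAT6, which carries interleukin 4 and 13 signals, had 4614 ± 330 and 5744 ± 1552 (lower in 4 of 4, adjusted p = 0.511), and FOXA1 had 1234 ± 220 and 948 ± 330 (higher in 3 of 4, adjusted p = 0.513). S1's 5-day air culture had the lowest air value of EHF (3344) and FOXA1 (491) and the highest of ELF3 (36345) and STAT6 (8031). With it left out and no block, the log2 fold change of EHF was 0.12, against 0.41 with it, that of FOXA1 0.16, against 0.45, that of STAT6 −0.11, against −0.28, and that of ELF3 −0.30, against −0.46. In air these regulators differed between times: 1 of 14 was called higher from 1 to 5 days (ELF3, log2 0.99 ± 0.17, adjusted p = 0.00439) and 4 of 14 lower from 5 days to recovery, with ELF3 (−0.57 ± 0.17, adjusted p = 0.0378) and STAT6 (−0.54 ± 0.13, adjusted p = 0.0111) among them. Of all genes 3.98% and 11.3% were called in these comparisons. With the block these counts were 4 higher and 3 lower (19.4% of all genes), and then 1 higher and 9 lower (28.4%). With no block and S1's 5-day air culture left out, ELF3 was called higher from 1 to 5 days (0.83 ± 0.16, adjusted p = 0.0068), and 1 of 14 was called lower from 5 days to recovery: STAT6 (−0.37 ± 0.09, adjusted p = 0.00969), against 4.2% and 8.72% of all genes.

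Of 11 tested secreted proteins of goblet and club cells (of 18 listed) none was called in smoke against air at any time, with or without the block. At recovery CLCA1, a protein of goblet cell mucus, had 2542 ± 1658 in smoke and 2850 ± 1370 in air (lower in 3 of 4 animals, adjusted p = 0.963). LYPD2 had 212 ± 103 and 180 ± 73.2, and the club cell protein SCGB1A1 had 20.3 ± 18.7 and 15.4 ± 12, each higher in 3 of 4 animals (adjusted p = 0.98 and 0.975). CLCA4 had 28.5 ± 4.63 and 31.5 ± 7.04 (adjusted p = 0.991). Of 14 other mucin genes listed, 6 were matched and 1 was tested: MUC15, a membrane mucin, with 1519 ± 403 in smoke and 1397 ± 269 in air at recovery (adjusted p = 0.98). MUC5AC was not matched and is not analysed here.

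Of 23 tested enzymes of mucin glycosylation (of 26 listed) none was called in smoke against air at any time over all libraries, with or without the block. B3GNT3, which extends core sugars, had 46.9 ± 8.75 normalized counts in smoke and 93.5 ± 31.3 in air at recovery (lower in 4 of 4 animals, log2 −0.93 ± 0.43, adjusted p = 0.543). GCNT1, which branches them, had 441 ± 16.2 and 550 ± 57.6 (lower in 4 of 4, adjusted p = 0.56). C1GALT1C1, the chaperone of the core enzyme, had 703 ± 109 and 571 ± 15.3 (higher in 4 of 4, adjusted p = 0.433). GALNT10, which starts chains, had 265 ± 27.7 and 182 ± 93.6 after 5 days (higher in 4 of 4, log2 0.77 ± 0.32, adjusted p = 0.472), and its air value was 50.6 in S1 and 183 to 263 in the other animals. Without S1's 5-day air culture the log2 fold change of GALNT10 was 0.24 ± 0.16 with no block and 0.18 ± 0.09 with it.

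Among 18 tested genes of granule formation and exocytosis (of 18 listed) none was called in smoke against air without a block. With it, SYT2, a calcium sensor of mucin granule release in mouse airways, was called lower at recovery, 1 of 18 against 3.41% of all genes. It had 177, 137, 236 and 108 in smoke against 253, 202, 343 and 190 in air (log2 −0.60 ± 0.16, adjusted p = 0.0409, and 0.63 without the block). After 5 days SYT2 was higher in smoke in 4 of 4 animals (322 ± 94.1 in smoke and 226 ± 77.9 in air) and was not called (adjusted p = 0.622, and 0.0996 with the block, where the log2 fold change was 0.51, against 0.34 without S1's 5-day air culture).

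Among 14 tested partners and sheddases of membrane mucins (of 14 listed), 1 was called lower in smoke at recovery and none higher, where 0.242% of all genes were called. SRC, a kinase that phosphorylates the tail of MUC1, had 658, 619, 506 and 518 in smoke, against 828, 883, 810 and 824 in air. The groups did not overlap, and the log2 fold change was −0.55 ± 0.11 (adjusted p = 0.0428, and 0.00335 with the block). With the block MSN was also called, which made 2 of 14, against 3.41% of all genes. This linker of the membrane to actin had 591, 629, 606 and 262 in smoke, against 802, 1005, 819 and 761 in air (−0.77 ± 0.19 with the block, adjusted p = 0.0309, and 0.172 without the block). After 5 days ST14, a membrane protease, was called lower with the block, 1 of 14 against 1.69% of all genes. It had 6215, 8667, 6281 and 7433 in smoke against 9690, 10940, 7784 and 9168 in air (−0.40 ± 0.07 with the block, adjusted p = 0.0119, and 0.416 without the block). At recovery its smoke cultures were above the air cultures in 4 of 4 animals (7322 ± 1065 and 6662 ± 786).

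None of 6 tested genes of the interleukin 13 response (of 9 listed) was called in smoke against air without a block over all libraries. With it IL4R, a receptor subunit for interleukins 4 and 13, was called lower at recovery, 1 of 6 against 3.41% of all genes. It had 1421, 1143, 1011 and 849 in smoke against 1775, 1762, 1451 and 1279 in air (log2 −0.51 ± 0.11, adjusted p = 0.0131, and 0.183 without the block). Without the block but with S1's 5-day air culture left out, IL4R (adjusted p = 0.0493) and MSN (0.0388) were called. The share of all genes called in that fit is not given here. It had 2257 of 14062 genes at an unadjusted limma p under 0.05 at recovery, against 1197 over all libraries. All 6 genes of the interleukin 13 response had a log2 fold change below 0 at recovery, with a median of −0.22 against 0.01 over all genes tested. The basal and ciliated marker sums above differed in the same cultures, and their part in the values of SRC, MSN, SYT2 and IL4R was not tested.

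In air, genes of these other lists differed between 5 days and recovery as well. Without a block, where 11.3% of all genes were called, 3 glycosylation enzymes were called higher at recovery than at 5 days and 1 lower, 1 secreted protein lower, 1 granule gene higher, 1 partner of membrane mucins higher and 3 lower, and 1 interleukin 13 gene higher. B3GNT3 was among the enzymes called higher (log2 1.53 ± 0.43, adjusted p = 0.0267, and 1.6 ± 0.47, adjusted p = 0.0378, without S1's 5-day air culture), and the secreted protein was LYPD2 (−1.55 ± 0.45, adjusted p = 0.032, and −0.97 ± 0.36, adjusted p = 0.103, without that culture). With that culture left out, where 8.72% of all genes were called, the counts were 1 enzyme higher, 1 partner higher and 1 lower, 1 interleukin 13 gene higher, and none of the secreted proteins or granule genes.

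The lists gave more calls in smoke against air with the block and S1's 5-day air culture left out, as did all genes (0.96% after 1 day, 6.26% after 5 days and 18.8% at recovery). Of the regulators, 2 were then called higher in smoke after 1 day, 3 lower after 5 days (ELF3 among them, −0.25 ± 0.05, adjusted p = 0.00997) and 2 higher at recovery. Of the glycosylation enzymes, 3 were lower after 5 days, and 5 higher and 3 lower at recovery. Of the granule genes, 1 was higher and 2 lower after 5 days, and 1 higher and 3 lower at recovery. Of the membrane mucin partners, 2 were lower after 5 days, and 1 higher and 3 lower at recovery, with ST14 at −0.31 ± 0.05 after 5 days (adjusted p = 0.0015). Of the interleukin 13 genes 1 was lower at recovery, IL4R, and none of the secreted proteins was called in smoke against air at any time.

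The genes most like MUC5B and SPDEF over the 24 libraries were found by Pearson correlation of log2(value + 1) across the tested genes with a symbol. For MUC5B they were ACSS1 (r = 0.953), the complement gene C3 (0.915), ABCG1 (0.89), MAGED1 (0.889) and CYP2C76 (0.887). S2 had the lowest mean of each of them, as it had for MUC5B: the mean of C3 was 3440 in S1, 55.1 in S2, 1700 in S3 and 1010 in S4. For SPDEF they were SERPINF1 (0.93), SUSD4 (0.911), RAD50 (0.892), ECHS1 (0.887) and LDHB (0.881), with a mean of SERPINF1 of 11500 in S1, 5030 in S2, 4170 in S3 and 7670 in S4. The 24 libraries come from 4 animals, so the points of these correlations share animals, and no p is given. Without S1's 5-day air culture, ACSS1 stayed the gene most like MUC5B (0.957) and C3 was at rank 4, while CYP2C76, MAGED1 and ABCG1 were at ranks 10, 12 and 15. For SPDEF, SERPINF1 was then at rank 2 (0.894) and SUSD4 at rank 4, while ECHS1, RAD50 and LDHB were at ranks 15, 20 and 23. These ranks were counted over all genes tested, also those without a symbol, while the 5 genes were picked among those with one. So at least 2 of the 5 genes named for MUC5B and at least 2 of the 5 for SPDEF kept their place without that library.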

How the data were processed

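The authors' deposited table gives a normalized signal per gene and library (normalized counts here), although it is named as raw counts. Values are not whole numbers, 77.4 to 82.9% of low values per library were multiples of a library's own step within 0.1 of it, and whole reads were not recovered, so count models were not used. Poly-A selected RNA was sequenced, per the labels' protocols; FastQC, Trim Galore, Bowtie2 and RSEM are named, per the submitters' processing notes. The sources used here give no version, genome build, annotation or normalization tool. How reads in the repeated exons of mucin genes were assigned was not tested.

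Group means of log2(value + 1) over all 24 libraries were fitted with limma 3.58.1 in R 4.3.3 (trend, no block), tested on simulated data, with 7 two-sided contrasts adjusted by Benjamini-Hochberg over 14062 genes. The log scale with a pseudocount of 1 understates changes of low values. Depth is approximate, so error is the spread between animals. The labels pair libraries by animal: deviations from group means correlated at 0.303 to 0.804 within animals (60 pairs) and −0.443 to 0.0149 between them (180 pairs). A fit that added animal as a block was an alternative. Others were a pseudocount of 5, no filter, a filter of 10 in all libraries, library totals, quantile normalization, only a contrast's libraries, an adjusted p of 0.1, and leaving out libraries or animals.

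The 8 genes, the 7 lists and the markers were chosen with earlier results of these data known. Named were all members, every list gene called in a smoke comparison with or without the block or otherwise the 4 with the smallest p, and the 5 genes with a symbol most correlated with MUC5B and with SPDEF.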

Additional observations from a re-analysis of the deposited data

Results flagged for a closer look

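In 48 groups of 4 cultures (8 genes in 6 groups), 2 held a value far from the other 3 by Dixon's test on log2(value + 1), a test that chance passes in about 1 of 20 groups. Both were MUC5B in S2: 48.3 normalized counts in air after 5 days, where the gap to the next culture was 0.923 of the group's range on that log2 scale, and 1.11 in air at recovery, where it was 0.869. On untransformed values, a scale tried after the data had been seen, neither passed (0.714 and 0.336), and 3 other groups did: TFF3 in smoke after 5 days (0.912) and in air after 1 day (0.888), both with S3 highest, and MUC1 in air at recovery (0.848), with S2 highest.

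The smoke effect on AGR3 differed between recovery and 5 days by 1.32 on the log2 scale, with every animal above 0 at recovery and below 0 at 5 days (limma adjusted p = 0.00804, and 0.00268 with animal as a block). That of AGR2 differed by 0.75 with the block (adjusted p = 0.0478), a call lost with the block when S2, S3 or S4 was left out (adjusted p = 0.141 to 0.293). For 3 other pairs of times every animal moved one way at one time and the opposite way at the other. The smoke effect on AGR3 was 0.99 higher at recovery than after 1 day, and that on AGR2 was 0.41 higher; these differences were not tested. The effect on MUC20 differed by −0.38 between 5 days and 1 day and was not called (adjusted p = 0.953).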

How the results depend on the processing

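The replicate block by animal changed the number of the 8 genes called from 1 to 2 for the change of the smoke effect from 5 days to recovery and from 1 to 3 for air at recovery against 5 days, and moved no other count of the 8 genes by over 1.5 times. With the block and S1's 5-day air culture left out, 2 were called at recovery, 2 for the change to recovery, 4 for air at 5 days against 1 day and 3 for air at recovery against 5 days. With only the libraries of the contrast, 0 were called at recovery (AGR3 adjusted p = 0.089), 0 for the change to recovery (0.101) and 0 in both air comparisons. For air at 5 days against 1 day 0 were called with no filter, 1 with library totals and 1 with quantile normalization; for air at recovery against 5 days 2 were called at an adjusted p under 0.1. Library totals moved the median log2 fold change of all genes to −0.14 for air at 5 days against 1 day and to 0.16 for the change from 1 to 5 days. With the block and without animal S1, S2, S3 or S4 (added after the data were seen), 3, 0, 0 and 0 genes were called at recovery, with AGR3 at an adjusted p of 0.0996, 0.108 and 0.14 without S2, S3 and S4. For the change to recovery 3 were called without S1 and 0 without S4, for air at 5 days against 1 day 4 without S1, and for air at recovery against 5 days 3 without S1, 3 without S3 and 2 without S4. The shares of all genes called without an animal are not given here, so these counts cannot be set against them. Leaving out only S1's 5-day air culture raised the share called at recovery with the block from 3.41% to 18.8% of all genes. Signs reversed for TFF3 after 1 day with library totals (−0.03), MUC5B after 5 days (−0.23) and MUC1 after 5 days (0.22) with the block and without that library, MUC1 after 5 days with quantile normalization (0.11) and MUC4 after 5 days with the block and without S4 (−0.06), none of them called. The cause of these changes was not tested.

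Leaving out 1 library or 1 animal gave 0 to 1 called genes at recovery, 0 to 1 for the change to recovery, 0 to 2 for air at 5 days against 1 day and 0 to 2 for air at recovery against 5 days. Uncalled log2 fold changes that crossed 0 then ranged as follows after 1 day: MUC5B −0.7 to 1.82, MUC20 −0.04 to 0.26, SPDEF −0.51 to 0.16, AGR2 −0.21 to 0.05 and TFF3 −0.53 to 0.58. After 5 days they were MUC5B −1.35 to 1.9, MUC4 −0.14 to 0.54, MUC1 −0.25 to 0.25, SPDEF −0.74 to 0.23 and TFF3 −0.83 to 0.43. At recovery they were MUC5B −3.26 to 1.9, MUC1 −0.23 to 0.04, MUC20 −0.15 to 0.05, SPDEF −0.47 to 0.3 and TFF3 −0.47 to 0.92, and for MUC1 in air at 5 days against 1 day −0.38 to 0.12. Of 1064 such values, 970 kept sign and call. Of 411 values under the other settings, 372 kept both. The filter of 10 in all libraries left no value for MUC5B, and 4 animals limit the precision of every value.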
